A study of Homo sapiens with 6 samples.

Results

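Axon guidance ligands and receptors were followed across wild type and MTSS1-overexpressing NCI-H1299 cells, a human lung cancer line. The genes were picked by symbol under a rule that holds no measured value, although earlier results of these data were known when the rule was written. They are the protein-coding semaphorins, plexins, neuropilins, EPH receptors, ephrins, SLITs, ROBOs, netrins and UNC5 receptors, with DCC and NEO1. The rule found 72 genes among the 19657 protein-coding rows of a count table with 64253 rows. By family these were 20 semaphorins, 9 plexins, 2 neuropilins, 14 EPH receptors, 9 ephrins, 3 SLITs, 4 ROBOs, 5 netrins, 4 UNC5 receptors and the pair DCC and NEO1.

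The study compared poly(A) RNA of 3 wild type libraries with that of 3 libraries from cells carrying an mCherry-tagged MTSS1 plasmid. MTSS1 is a scaffold protein that binds curved membranes and actin. According to the labels the plasmid-bearing cells were kept under hygromycin and sorted by flow cytometry, and HEK293T cells are mentioned in the step that introduced the plasmid. Wild type cells are described by the same growth conditions, and whether the plasmid-bearing cells were 1 clone is not given in the sources used here. None of the libraries analysed here carried a control plasmid, so plasmid, selection and sorting cannot be told apart from MTSS1 itself. Nothing in the labels says that replicates were separate cultures, and the p-values below measure only the spread between these libraries.

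Guidance cues steer growing axons by attraction or repulsion, and most of them act in other tissues too, where they set cell position, adhesion and migration. Semaphorins signal through plexins, with neuropilins as co-receptors for the secreted class 3 members. Ephrins are held on the cell surface and bind EPH receptor tyrosine kinases on neighbouring cells. SLITs act through ROBOs, and secreted netrins such as NTN1 through DCC, NEO1 and the UNC5 receptors. The receptors act on the actin cytoskeleton.

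The labels were first checked on MTSS1, which stood at 24.2, 18.0 and 24.3 CPM (counts scaled by library size with TMM) in wild type replicates 1 to 3. In overexpressing replicates 1 to 3 it stood at 550, 544 and 568 CPM, 25.1-fold higher (log2 fold change 4.65 with SE 0.13 and edgeR adjusted p = 3.6e-07). Library totals ranged from 13883380 to 29479453 counts. Replicate 1 of both groups stood apart on principal component 1 (34.8% of the variance), and the groups separated on the second (32.9%). Of the markers of other cell types, the neuronal list summed to 19.1 to 26.1 CPM in wild type and 16.6 to 20.3 CPM in overexpressing libraries, with 1 count of ELAVL4 and 2 of STMN2 over the 6 libraries, and 5 of its 9 genes averaged at least 1 CPM. The glial list summed to 29.3 to 35.1 against 17.8 to 22.2 CPM, nearly all of it MBP, with 3 counts of GFAP. Of the kidney markers looked at because of the HEK293T mention, LHX1 was at 0, PAX2 had 8 counts and PAX8 stood at 2.96 to 4.54 CPM. The kidney list summed to 3.72 to 4.35 CPM in wild type and 3.04 to 4.54 CPM in overexpressing libraries. The lung and epithelial list summed to 571 to 853 CPM in wild type and 259 to 470 CPM in overexpressing libraries, mostly KRT8 and KRT18, with 11 counts of CDH1 and 2 of KRT19 over the 6 libraries. In the same list NKX2-1, KRT7 and EPCAM, all at low levels, lay higher in every overexpressing library than in any wild type one. Their log2 fold changes were 1.15, 1.05 and 0.66, and none of the 3 passed the test (edgeR adjusted p = 0.12, 0.16 and 0.44). KRT8 passed downward (log2 fold change -1.74, edgeR adjusted p = 0.011), and KRT18 did not pass (-0.8, edgeR adjusted p = 0.061). MBP also passed downward (-0.62, edgeR adjusted p = 0.03). Of the mesenchymal markers, FN1 passed upward (0.57, edgeR adjusted p = 0.038). VIM, at 4260 to 4810 CPM, CDH2 and ZEB1 did not pass (edgeR adjusted p = 0.58, 0.86 and 0.92). The part of these marker differences in the results below was not tested. In such bulk libraries, fewer cells of a type and less RNA per cell cannot be told apart.

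Of the 72 genes, 47 had enough counts to be tested and 25 did not. SEMA5B, EPHA6, EPHB6 and DCC were listed at 0 in all 6 libraries, which allows up to 0.0214 CPM each. The readthrough gene EFNA4-EFNA3 was also listed at 0 in all 6, but it shares exons with EFNA3 and EFNA4. The counting of reads in shared exons was not examined, so no such bound is given for it. The other 20 had 1 to 56 counts over the 6 libraries, with EPHB3 (56), SEMA3B (54), SEMA3F (52), PLXNB3 (44), NTN1 (42) and NTNG2 (40) at the top. PLXNA2, a receptor for class 6 and class 3 semaphorins, had 28 wild type counts and 4 from overexpressing cells, and was not tested. Low values are listed values only, since RPS9, a ribosomal protein gene that every cell uses, had 37 counts over the 6 libraries. Intervals and floors here cover counting error only.

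Levels of different genes were compared per kilobase of exon length. EPHA2, an EPH receptor common in epithelial tumours, stood highest at a mean of 66.8 CPM per kilobase. PLXNA1 at 17.9 and PLXNB2 at 17.8 followed, and these plexins were level with each other. EPHB4, the receptor of EFNB2, stood at 12.2. SEMA3C, a secreted semaphorin, stood at 8.58, ROBO1 at 7.11 and SEMA4C, a membrane-bound ligand of PLXNB2, at 5.55. NTN4, a laminin-related netrin, averaged 3.77 and EFNA5 averaged 3.62. Each family had at least 1 tested member, and the lowest of these was UNC5C, a netrin receptor, at 0.037 CPM per kilobase.

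**Figure D1:**
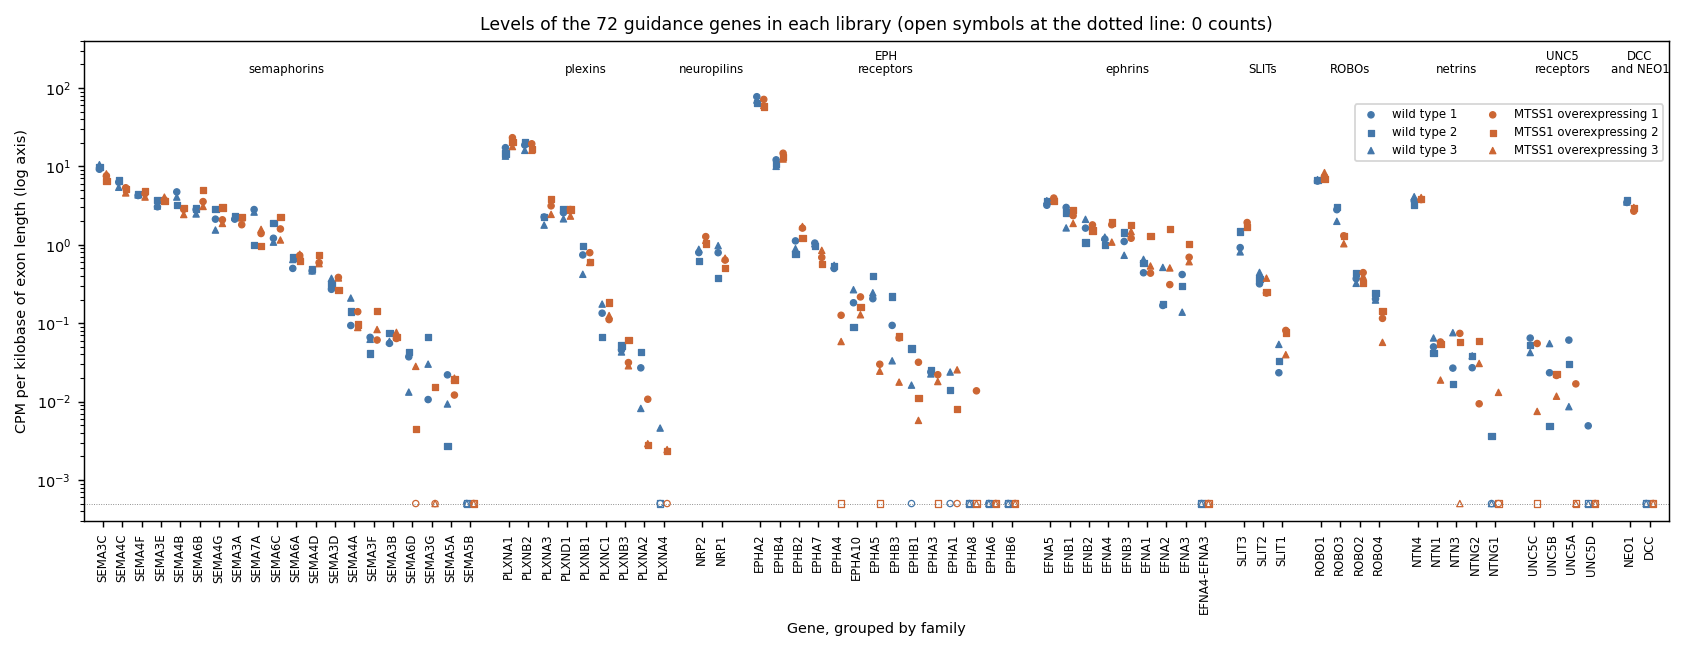
Level of each of the 72 guidance genes in CPM per kilobase of exon length (log axis), with 1 point per library, in blue for wild type and orange for MTSS1 overexpressing; open symbols on the dotted line are libraries with 0 counts. EPHA2 stands highest at a mean of 66.8, and the orange points of EPHA4, EPHA5 and ROBO3 lie below all their blue points.

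In all, 3 receptors fell in the MTSS1-overexpressing cells, ROBO3, EPHA5 and EPHA4. In the main fit, which had no block for neighbouring libraries, no ligand or receptor passed the test upward. With that block 9 did, as described below, and without a filter on low counts 6 did. ROBO3 was 2.18-fold lower and kept a mean of 8.43 CPM, whereas EPHA4 and EPHA5 had 0 to 13 counts in each overexpressing library. Among the 47 tested genes, 0 were called higher and 3 lower (edgeR's quasi-likelihood test with Benjamini-Hochberg adjustment over 16091 genes, threshold 0.05). The background was 4.28% of all tested genes, with 1.82% called higher and 2.45% called lower. The members' share was 6.38%, against 5.2% of the protein-coding genes tested. It includes EPHA5, which entered the test through its wild type libraries alone and so had to differ between the groups. At an unadjusted p under 0.05, 9 of the 47 members were higher and 9 lower. The background was 1472 and 1717 of the 16091 tested genes (9.15% and 10.7%), or 1298 and 1557 of the 12540 protein-coding ones. The members' share was the larger in both directions. DESeq2 called 5 of the 47 higher (PLXNA1, PLXNA3, NRP2, EPHB2 and SLIT3) and 4 lower (EPHA5, ROBO3, SEMA3C and SEMA4B). Its background was 562 and 691 of the 16091 tested genes, 3.49% higher and 4.29% lower (7.79% together). Among the 12540 protein-coding ones it was 533 and 657. Each gene was also measured against the median of its 50 nearest tested neighbours on the chromosome. There 0 of the 47 members were called higher and 3 lower (EPHA5, ROBO3 and SEMA3C). The background was 2.09%, or 0.764% higher and 1.33% lower.

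The median log2 fold change of the tested members was 0.07, with quartiles of -0.30 and 0.43. That of all tested genes was 0.00, with quartiles of -0.18 and 0.19. In 27 members the estimate was positive and in 20 negative. The CPM of the groups did not overlap in 10 members that were higher and 9 that were lower, 40.4% together, where 25.5% of all tested genes and 28.4% of the protein-coding ones had no overlap. Besides EPHA5, every tested member reached the filter on low counts in at least 1 library of each group. EPHA4 and UNC5C reached it in all wild type libraries but not in all overexpressing ones. For EFNA3 it was the reverse.

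**Figure D2:**
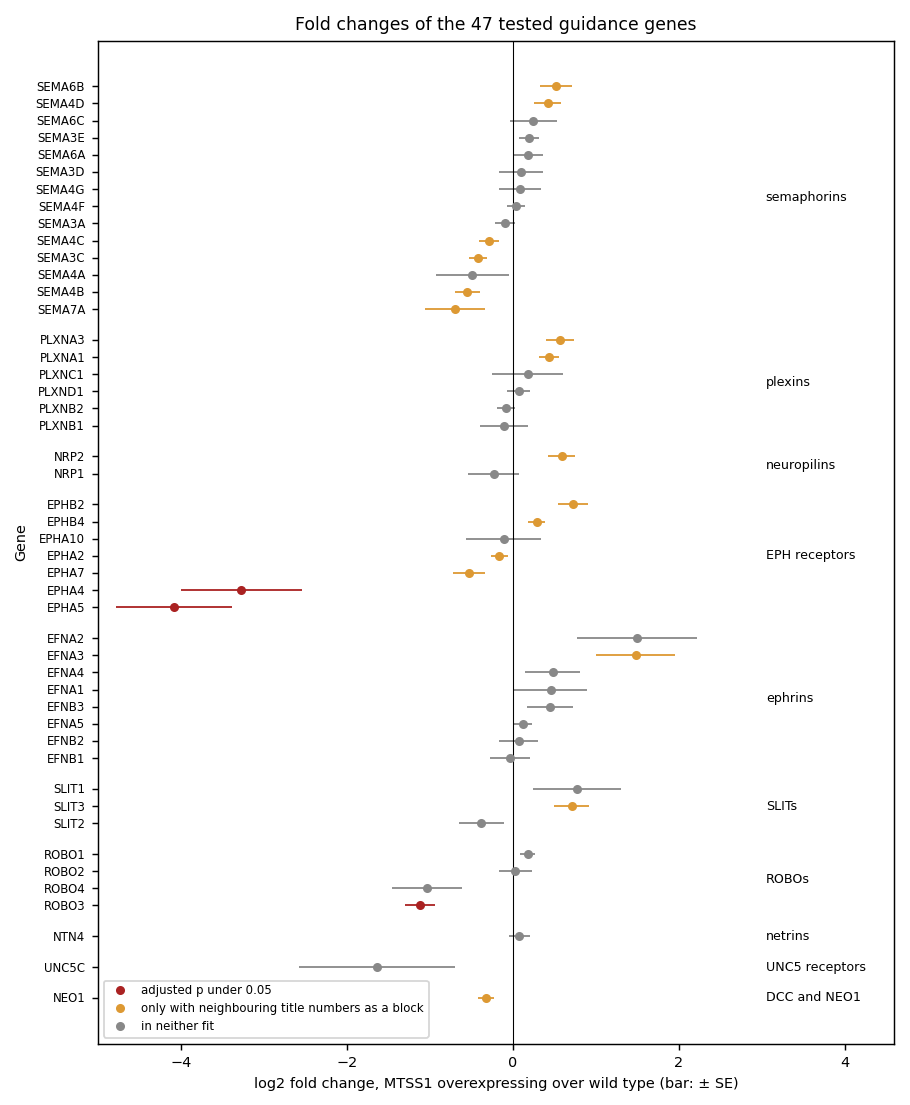
Log2 fold change (MTSS1 overexpressing over wild type) with its standard error for each of the 47 tested genes, by family; red points passed an edgeR adjusted p of 0.05, yellow points passed only with neighbouring libraries as a block, and grey points passed in neither. The 3 red points, EPHA5 at -4.08, EPHA4 at -3.27 and ROBO3 at -1.12, all lie left of 0.

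Library titles carry running numbers that fall into neighbouring pairs of 1 wild type and 1 overexpressing library, and the paired libraries deviated together from their group means. With these pairs as a block, 9 members were higher and 10 lower, 40.4% of those tested, against a background of 22.7% of all tested genes (10.7% higher and 12% lower) and 27.2% of the protein-coding ones. All 3 genes called without the block were among them. The labels do not say what neighbouring numbers share. Adjusted p-values with the block are given below only where they change a call.

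Among the ligands, none of the 14 tested semaphorins passed the test (median log2 fold change 0.07). SEMA3C, a secreted cue that binds neuropilins and plexins, stood at 57.5, 61.1 and 65.9 CPM in wild type and at 47.5, 40.4 and 50.3 CPM in overexpressing libraries. All 3 overexpressing libraries lay below the wild type ones, although the edgeR adjusted p was 0.06 (log2 fold change -0.42, SE 0.11). It was 0.0017 with the block, and 0.039 against its neighbours on the chromosome. SEMA4B, a transmembrane semaphorin, stood at 33.1, 22.5 and 28.5 against 19.8, 20.5 and 17.1 CPM (log2 fold change -0.55 with SE 0.15 and edgeR adjusted p = 0.083, or 0.0093 with the block). Its chromosomal neighbours had a median log2 fold change of -0.31, and against them the SEMA4B estimate was -0.24. Without wild type replicate 2 it was -0.69 (edgeR adjusted p = 0.047).

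SEMA4C stood at 38.7, 40.7 and 33.3 CPM in wild type and at 32.8, 31.4 and 28.2 CPM in overexpressing libraries (log2 fold change -0.29 with SE 0.12 and edgeR adjusted p = 0.2, or 0.016 with the block). SEMA6B, a membrane-bound class 6 semaphorin that binds A-type plexins, lay the other way at 12.4, 12.8 and 10.9 against 15.6, 22.3 and 13.6 CPM (log2 fold change 0.52 with SE 0.19 and edgeR adjusted p = 0.16, or 0.015 with the block). In both genes the groups did not overlap, and the spread between overexpressing libraries of SEMA6B was the wider (SD 4.54 against 0.999 CPM, n = 3 each). The class 3 genes SEMA3E, SEMA3A and SEMA3D lie in that order on chromosome 7, 0.307 and 0.503 Mb apart. They had log2 fold changes of 0.20, -0.09 and 0.10, none past the test with or without the block.

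Of the 8 tested ephrins none passed the test, and 7 had a positive estimate (median 0.45), as did 8135 of all 16091 tested genes. Among the 7, EFNA1, EFNA3 and EFNA4 lie close together on chromosome 1. EFNA2 had only 21 wild type counts and 55 from overexpressing cells. EFNA3, a lipid-anchored ligand of EPHA receptors, stood at 0.795, 0.562 and 0.263 CPM in wild type and at 1.32, 1.96 and 1.16 CPM in overexpressing libraries. These did not overlap, but the counts were 39 and 98 in all and the edgeR adjusted p was 0.12 (0.024 with the block). EFNA3 and EFNA4 share exons with EFNA4-EFNA3, which was listed at 0. Whether reads in the shared exons are missing from their counts was not tested. EFNA5, the ephrin with the highest level per kilobase, stood at 18.2, 20.4 and 20.8 against 22.5, 20.5 and 21.5 CPM (log2 fold change 0.12 with SE 0.11 and edgeR adjusted p = 0.65). EFNB1, a transmembrane ligand of EPHB receptors, had a log2 fold change of -0.03 (with SE 0.24 and edgeR adjusted p = 0.96), and its direction changed with the processing.

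SLIT3, a secreted ROBO ligand, stood at 13.1, 21.1 and 11.6 CPM in wild type and at 27.4, 23.9 and 23.9 CPM in overexpressing libraries. The groups did not overlap, but wild type replicate 2 lay close to the overexpressing libraries. The log2 fold change was 0.71 (SE 0.21, edgeR adjusted p = 0.093, or 0.0064 with the block), and without that library it was 1.02 (adjusted p = 0.015). SLIT2, a close relative, pointed the other way at 3.08, 3.57 and 4.32 against 2.35, 2.42 and 3.64 CPM, with overlapping groups (log2 fold change -0.38 with SE 0.27 and edgeR adjusted p = 0.5). NTN4 was the only netrin with enough counts to be tested. It stood at 15.2, 13.6 and 17.1 against 15.7, 16.1 and 16.7 CPM (log2 fold change 0.08 with SE 0.13 and edgeR adjusted p = 0.8).

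Among the semaphorin receptors, 6 plexins and both neuropilins were tested and none passed. PLXNA1, which pairs with neuropilins to receive class 3 semaphorins, stood at 189, 160 and 148 CPM in wild type and at 254, 226 and 196 CPM in overexpressing libraries. Within each neighbouring pair the overexpressing library was the higher one, and the groups did not overlap. The log2 fold change was 0.44 (SE 0.12, edgeR adjusted p = 0.074, or 1.1e-04 with the block). PLXNB2, a receptor for class 4 semaphorins, stood at 135, 147 and 116 against 141, 119 and 116 CPM (log2 fold change -0.08 with SE 0.11 and edgeR adjusted p = 0.75).

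PLXNA3, another partner of the neuropilins, stood at 26.5, 26.5 and 20.9 CPM in wild type and at 36.6, 44.5 and 28.6 CPM in overexpressing libraries (log2 fold change 0.57 with SE 0.17 and edgeR adjusted p = 0.096, or 9.8e-04 with the block). Its 50 nearest tested genes on the X chromosome had a median log2 fold change of 0.69. Measured against them, PLXNA3 stood at -0.12. It also overlaps LAGE3 on the opposite strand, and without a known strand setting the reads of the pair cannot be told apart.

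NRP2, a co-receptor for secreted semaphorins, stood at 11.0, 8.67 and 12.2 CPM in wild type and at 17.6, 14.4 and 15.8 CPM in overexpressing libraries. The groups did not overlap (log2 fold change 0.59 with SE 0.16 and edgeR adjusted p = 0.075, or 0.0045 with the block). NRP1, the other co-receptor, stood at 9.12, 4.33 and 11.2 against 7.34, 5.84 and 7.76 CPM, with the overexpressing libraries inside the wild type range (log2 fold change -0.23 with SE 0.31 and edgeR adjusted p = 0.75). Without wild type replicate 3 the NRP1 estimate was 0.06.

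**Figure D3:**
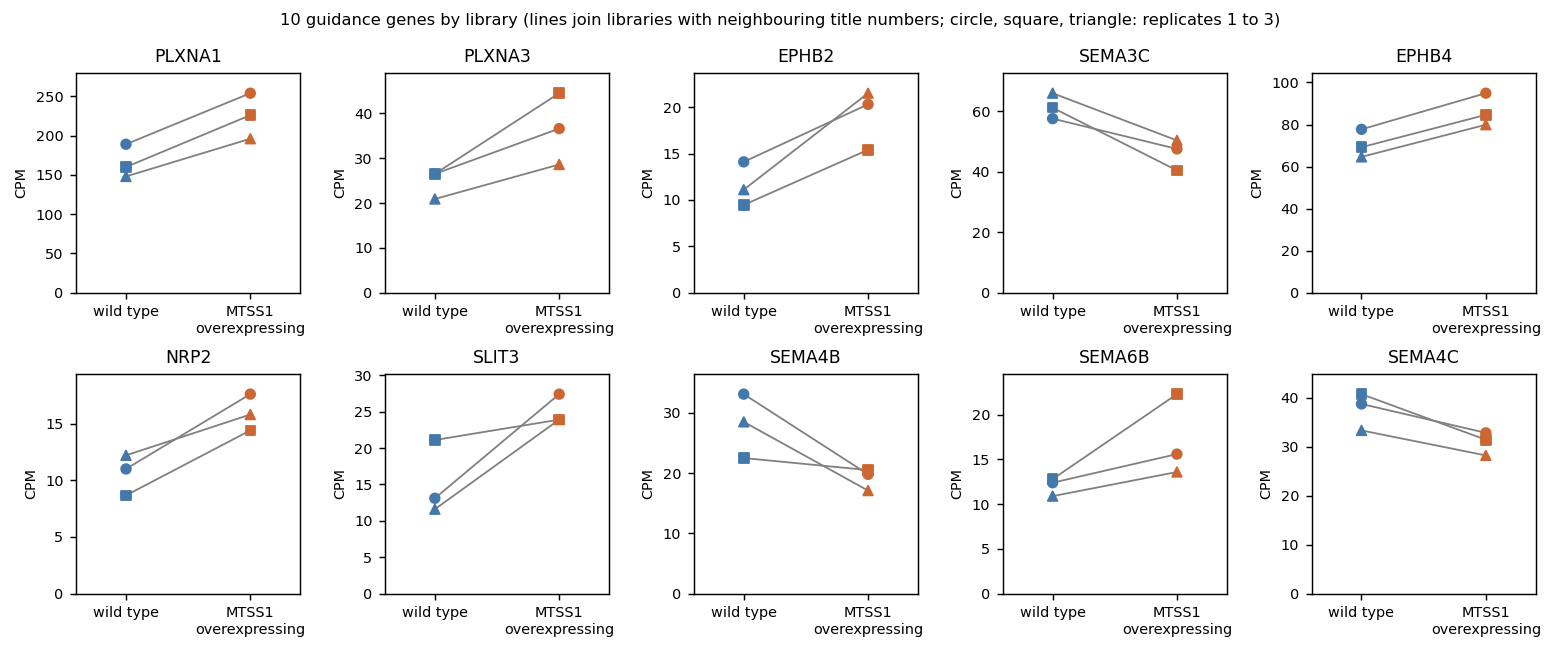
Levels in CPM of the 10 members with the smallest blocked adjusted p among those that passed only with the block; each line joins a wild type library (blue) to the overexpressing library (orange) with the neighbouring title number. All 3 lines slope upward for PLXNA1, PLXNA3, EPHB2, EPHB4, NRP2, SLIT3 and SEMA6B and downward for SEMA3C, SEMA4B and SEMA4C; the lines of replicate 2 are short for SLIT3 (21.1 to 23.9 CPM) and SEMA4B (22.5 to 20.5 CPM).

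Of the 14 EPH receptors 7 were tested and 2 fell, EPHA4 and EPHA5 (median log2 fold change of the 7, -0.16). EPHA4 (ENSG00000116106, chromosome 2, 221418027 to 221574202, GRCh38) is a receptor that binds both A-type and B-type ephrins. It stood at 3.77, 4.07 and 4.13 CPM in wild type and at 0.955, 0 and 0.44 CPM in overexpressing libraries. These rest on 304 counts against 24, and the 0 in overexpressing replicate 2 allows up to 0.115 CPM. The wild type libraries lay close together, and every overexpressing library lay far below them. Pooled and scaled counts were 10.8 times higher in wild type (95% interval 7.13 to 17.1, counting error only). The log2 fold change was -3.27 (SE 0.73, edgeR adjusted p = 0.039). The call was lost without any 1 of the wild type libraries (adjusted p = 0.064, 0.11 and 0.13 without replicates 1 to 3), without overexpressing replicate 3 (0.13), against the chromosomal neighbours (0.061) and in DESeq2 (0.11). Its log2 fold change was -3.22 to -3.33 in the fits without those libraries, -3.25 against the neighbours and -3.13 in DESeq2.

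EPHA5 (ENSG00000145242, chromosome 4, 65319563 to 65670495, GRCh38) is a receptor for A-type ephrins that is best known from the nervous system. It stood at 2.02, 3.94 and 2.4 CPM in wild type and at 0.294, 0 and 0.24 CPM in overexpressing libraries. The counts were 38, 119 and 64 against 4, 0 and 6, with a large spread among the wild type libraries and no overlap of the groups. Pooled and scaled counts were 18.9 times higher in wild type (95% interval 10.1 to 39.9, counting error only). The log2 fold change was -4.08 (SE 0.70, edgeR adjusted p = 0.015), for a gene that reached the filter on low counts in its wild type libraries only. It lost the call without wild type replicate 2 (adjusted p = 0.061), wild type replicate 3 (0.058) or overexpressing replicate 3 (0.061). The overlapping antisense gene EPHA5-AS1 had 29 counts over the 6 libraries, beside 221 counts of EPHA5 in wild type and 10 in overexpressing libraries. The part of antisense reads in these counts was not tested.

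**Figure D4:**
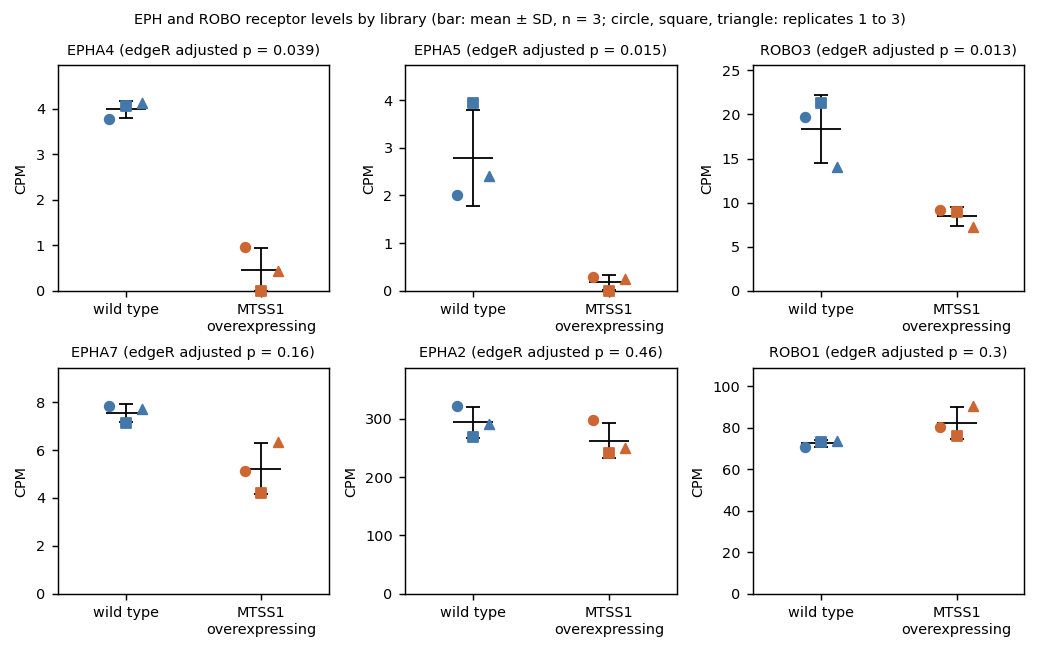
Levels in CPM of 6 EPH and ROBO receptors by group, with 1 symbol per replicate and a bar at the mean ± SD (n = 3). The overexpressing libraries of EPHA4, EPHA5, ROBO3 and EPHA7 lie below all wild type ones, those of ROBO1 lie above them, and the groups of EPHA2 overlap. EPHA7, EPHA2 and ROBO1 did not pass the test (edgeR adjusted p = 0.16, 0.46 and 0.3).

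The other 5 tested EPH receptors did not pass the test. EPHA2, the most abundant per kilobase, stood at 322, 268 and 291 CPM in wild type and at 297, 241 and 249 CPM in overexpressing libraries (log2 fold change -0.16 with SE 0.10 and edgeR adjusted p = 0.46, or 0.025 with the block). EPHA7, another A-type receptor, stood at 7.85, 7.14 and 7.7 against 5.14, 4.19 and 6.32 CPM, without overlap (log2 fold change -0.53 with SE 0.19 and edgeR adjusted p = 0.16, or 0.029 with the block). Its chromosomal neighbours had a median log2 fold change of -0.25, and against them EPHA7 stood at -0.28. The tested B-type receptors had positive estimates. EPHB2, a receptor for B-type ephrins, stood at 14.1, 9.46 and 11.1 against 20.3, 15.4 and 21.5 CPM (log2 fold change 0.73 with SE 0.18 and edgeR adjusted p = 0.059, or 0.0012 with the block). EPHB4 stood at 77.7, 69.2 and 64.6 against 94.9, 84.6 and 79.9 CPM (log2 fold change 0.29 with SE 0.10 and edgeR adjusted p = 0.14, or 0.0027 with the block). Both had no overlap between the groups, EPHB2 passed the threshold when wild type replicate 1 was left out (log2 fold change 0.89), and EPHB4 overlaps SLC12A9 on the opposite strand.

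Of the 4 ROBOs, all of them tested, ROBO3 alone passed. ROBO3 (ENSG00000154134, chromosome 11, 124865386 to 124881470, GRCh38) is the family member known for its part in the midline crossing of commissural axons. It stood at 19.7, 21.3 and 14.0 CPM in wild type and at 9.11, 8.99 and 7.2 CPM in overexpressing libraries. The lowest wild type library lay above the highest overexpressing one, and the means were 18.3 ± 3.82 and 8.43 ± 1.07 CPM (SD, n = 3 each) from 1387 and 538 counts. The log2 fold change was -1.12 (SE 0.18, edgeR adjusted p = 0.013). It passed in 5 of the 6 fits that leave out 1 library, and without overexpressing replicate 3 the adjusted p was 0.061. Its chromosomal neighbours had a median log2 fold change of -0.21, and against them ROBO3 stood at -0.91 (adjusted p = 0.04).

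ROBO4, an endothelial family member whose gene lies 2.22 kb from ROBO3, stood at 1.43, 1.69 and 1.39 CPM in wild type and at 0.808, 0.999 and 0.4 CPM in overexpressing libraries. The groups did not overlap, and the estimate was close to that of ROBO3 (log2 fold change -1.03, SE 0.42), but ROBO4 did not pass (edgeR adjusted p = 0.21). ROBO1, the main SLIT receptor by level, stood at 70.5, 73.3 and 73.7 against 80.3, 75.8 and 90.5 CPM, without overlap (log2 fold change 0.18 with SE 0.09 and edgeR adjusted p = 0.3). ROBO2, a further SLIT receptor, had a log2 fold change of 0.03 (with SE 0.20 and edgeR adjusted p = 0.96).

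Of the netrin receptors, NEO1, which also binds repulsive guidance molecules, stood at 28.1, 30.4 and 28.5 CPM in wild type and at 21.7, 23.6 and 24.3 CPM in overexpressing libraries. The groups did not overlap (log2 fold change -0.32 with SE 0.10 and edgeR adjusted p = 0.13, or 0.017 with the block). Its neighbours on chromosome 15 had a median log2 fold change of -0.31, and against them NEO1 stood at -0.01. UNC5C, a receptor for the repulsive action of netrins, had 42 wild type counts and 10 from overexpressing cells, with overlapping groups (log2 fold change -1.64 with SE 0.94 and edgeR adjusted p = 0.39).

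The make-up of 5 families was described as each member's share of the family's summed CPM per kilobase, without a test. Among the ROBOs, ROBO3 made up 28.4%, 29% and 21.5% of the sum in wild type and 14.0%, 14.7% and 10.5% in overexpressing libraries. ROBO1 took 65.8%, 64.5% and 72.9% against 79.9%, 80.0% and 84.9%, while the sum of the family stayed between 8.71 and 10.4 CPM per kilobase in all 6 libraries. Among the plexins, PLXNB2 led in wild type with 44.7%, 49.2% and 46.9%, against 39.2%, 37.0% and 40.6% in overexpressing libraries. PLXNA1 held 41.4%, 35.6% and 39.7% in wild type and led in overexpressing libraries with 46.9%, 46.3% and 45.4%. Which of these plexins leads depends on the exon length, since in CPM PLXNA1 lay above PLXNB2 in all 6 libraries. Among the EPH receptors, EPHA2 held 82.3% to 84.2% in wild type and 79.3% to 80.3% in overexpressing libraries, and EPHB4 held 12.1% to 13.8% against 16.5% to 17.9%. In each of these comparisons of shares the 3 libraries of one group lay on one side of the other 3. Shares within a family add up to the whole, so opposite shifts of its members are not separate results. No background for such a separation is given here. In families not described, the shares of EFNA5 among the ephrins and NTN4 among the netrins overlapped between the groups. SLIT3 held 73.0%, 78.7% and 61.9% of the SLITs against 85.6%, 83.7% and 80.2%. NRP2 held 50.1%, 62.4% and 47.3% of the neuropilins against 66.6%, 67.2% and 62.9%, with wild type replicate 2 just below the lowest overexpressing library.

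**Figure D5:**
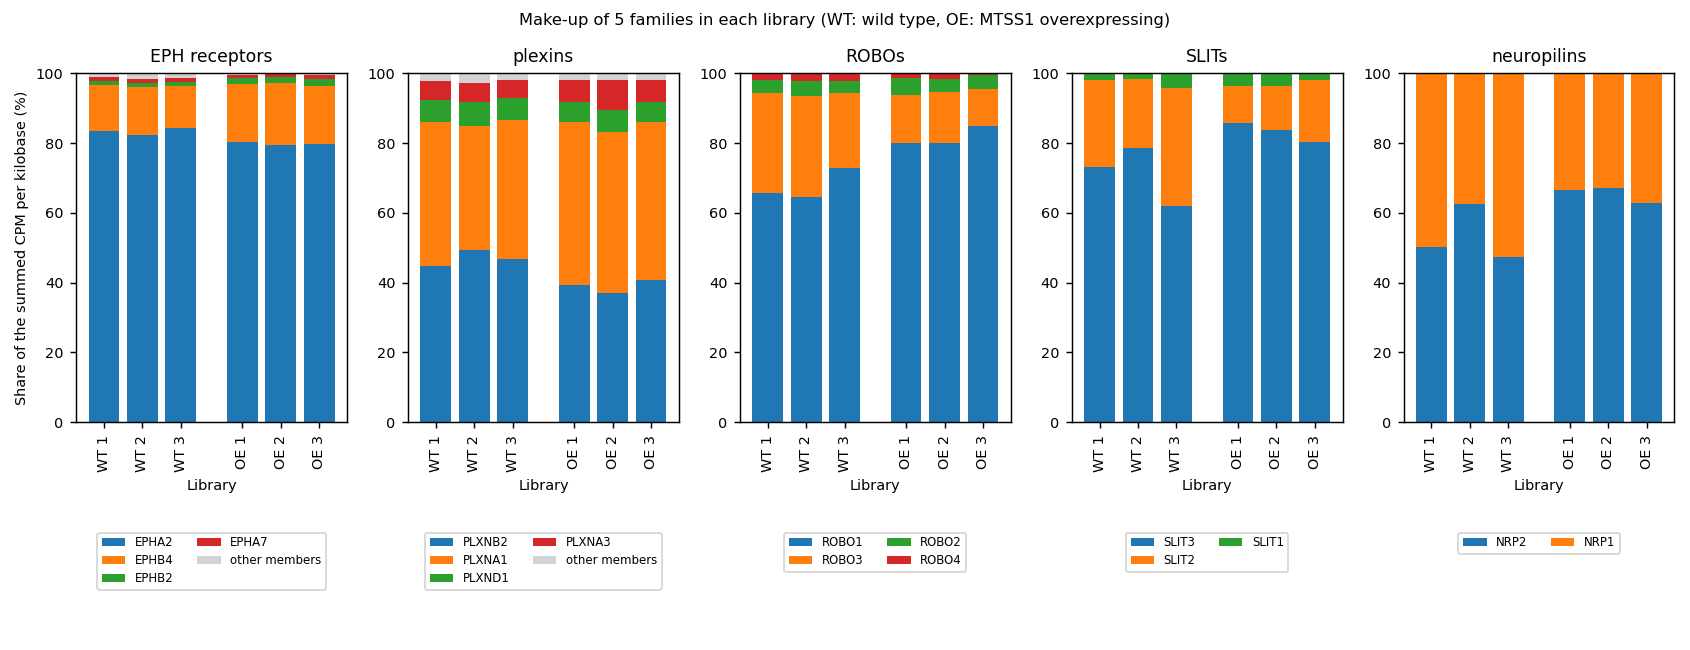
Share of each family's summed CPM per kilobase held by its members in each of the 6 libraries, in percent. In the ROBO panel the ROBO3 segment is 21.5% to 29% of the bar in wild type and 10.5% to 14.7% in overexpressing libraries.

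Of 70 listed intracellular effectors of guidance receptors, 65 were tested, 2 rose and 4 fell (3.08% and 6.15%), with a median log2 fold change of 0.00. Over all tested genes the shares were 1.82% and 2.45%, and over the protein-coding ones 2.21% and 2.99%. DPYSL5, a collapsin response mediator of semaphorin signalling, stood at 4.56, 2.58 and 4.73 CPM in wild type and at 17.8, 21.7 and 15.2 CPM in overexpressing libraries (log2 fold change 2.21 with SE 0.24 and edgeR adjusted p = 0.0028). It passed without any 1 library. EVL, an actin-binding protein of the Ena/VASP family, rose by 0.41 on the log2 scale (SE 0.09, edgeR adjusted p = 0.041), a call that none of the 6 fits without 1 library gave (highest adjusted p 0.16). Against its chromosomal neighbours EVL did not pass either (log2 fold change 0.36, edgeR adjusted p = 0.1). NGEF, the exchange factor ephexin that binds EPHA receptors, stood at 7.53, 6.48 and 8.22 against 3.82, 3.31 and 2.52 CPM (log2 fold change -1.22 with SE 0.21 and edgeR adjusted p = 0.017).

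RGS3, a regulator of G-protein signalling that can act downstream of B-type ephrins, stood at 60.4, 48.1 and 51.9 against 38.2, 29.6 and 29.4 CPM (log2 fold change -0.73 with SE 0.13 and edgeR adjusted p = 0.02). PAK1, a kinase activated by Rac and Cdc42, fell by 0.53 on the log2 scale (SE 0.08, edgeR adjusted p = 0.01), and ARHGEF11, an exchange factor that B-type plexins recruit, fell by 0.52 (SE 0.09, edgeR adjusted p = 0.015). The neighbours of PAK1 and ARHGEF11 had medians of -0.32 and -0.29, and against them neither passed (edgeR adjusted p = 0.25 and 0.27). The calls of all 4 lower effectors were lost without overexpressing replicate 3 (edgeR adjusted p = 0.067 for NGEF, 0.086 for RGS3, 0.054 for PAK1 and 0.077 for ARHGEF11). Those of NGEF, RGS3 and ARHGEF11 were also lost without overexpressing replicate 2 (0.057, 0.082 and 0.058), those of NGEF, RGS3 and PAK1 without wild type replicate 3 (0.083, 0.07 and 0.058), and that of RGS3 without wild type replicate 1 (0.056). With the block, 8 effectors were higher and 13 lower, 32.3% of those tested, against 22.7% of all tested genes and 27.2% of the protein-coding ones.

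Of 48 listed co-receptors, adhesion partners and further cues, 28 were tested, 0 were called higher and 2 fell (7.14%), with a median log2 fold change of -0.13. The share called lower was 2.45% of all tested genes and 2.99% of the protein-coding ones. Among the 28 tested partners, 3 were higher and 8 lower at an unadjusted p under 0.05. Over all 16091 tested genes these counts were 1472 and 1717 (9.15% and 10.7%). DESeq2 called 1 partner higher, NRCAM (adjusted p = 0.018), and 4 lower, where 3.49% and 4.29% of all tested genes were called. DCBLD2, a membrane protein related in structure to the neuropilins, stood at 852, 771 and 912 CPM in wild type and at 498, 476 and 554 CPM in overexpressing libraries (log2 fold change -0.73 with SE 0.10 and edgeR adjusted p = 0.005). It passed without any 1 library. FLRT2, a repulsive ligand of UNC5 receptors, entered the test through its wild type libraries alone, with 74 counts there and 9 from overexpressing cells (log2 fold change -2.82 with SE 0.64 and edgeR adjusted p = 0.042). None of the 6 fits with 1 library omitted gave that call (highest adjusted p 0.15). Against its chromosomal neighbours FLRT2 did not pass either (log2 fold change -2.92, edgeR adjusted p = 0.055). With the block, 4 partners were higher and 9 lower, 46.4% of those tested, against the same 22.7% and 27.2%.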

How the data were processed

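RNA of 6 libraries was analysed, 3 per group. The deposited table holds raw read counts per Ensembl gene, made by the authors with bcl2fastq, HISAT2 2.1.0, HTSeq and the GRCh38 build, per the submitters' processing notes. For the annotation release and strand setting the sources used here give nothing, so overlapping genes on opposite strands cannot be told apart. Symbols, gene types and exon lengths came from the current name table and GENCODE release 29.

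The tests ran on these counts in edgeR 4.0.16 under R 4.3.3: TMM scaling, filterByExpr (0.392 CPM in at least 3 libraries), the quasi-likelihood test, two-sided, and Benjamini-Hochberg adjustment over 16091 genes with a threshold of 0.05. Every adjusted p is from this test unless DESeq2 1.42.0 is named. The biological coefficient of variation was 0.162. The script was tested on simulated data. The level that a count of 0 allows was taken as 3 counts.

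The members and the lists of effectors and partners were chosen with earlier results of these data known. Named genes are MTSS1, members past the threshold, the 2 highest tested members of each family per kilobase, up to 10 that pass only with the block, and up to 8 past the threshold from each list. Any other member was picked for naming once its values had been seen.

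Deviations from the group means correlated at 0.66, 0.34 and 0.38 within the neighbouring title numbers and at -0.40 to 0.10 in other cross-group pairs, across genes. The pairing comes from these titles and correlations, not from a statement in the labels. Alternatives were other scalings, other filters, DESeq2, the block, an offset by the median of the 50 nearest tested genes, and leaving out libraries.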

Additional observations from a re-analysis of the deposited data

How the results depend on the processing

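Counts of 47 members, 65 effectors and 28 partners moved with the replicate block, the filter and the test, and called genes with few counts depended on single libraries. The shares of all tested genes called higher and lower were 1.82% and 2.45% in the main fit and 10.7% and 12% with the block. They were 3.49% and 4.29% in DESeq2, and 0.764% and 1.33% with the neighbour offset. For the other settings no such share is given here, so their counts have no background. Members called higher numbered 0, and 6 without a filter on low counts, 9 with the replicate block (neighbouring libraries paired), 5 in DESeq2 and 0 to 1 when 1 library was left out. Members called lower numbered 3, and 6 without a filter, 10 with the block, 1 without both first libraries and 0 to 3 with 1 library left out. Effectors called higher numbered 2, and 5 without a filter, 8 with the block, 1 without both first libraries, 5 in DESeq2 and 1 to 2 with 1 library left out. Effectors called lower numbered 4, and 7 without a filter, 13 with the block, 1 without both first libraries, 7 in DESeq2 and 0 to 4 with 1 library left out. Partners called higher numbered 0, and 1 with upper-quartile scaling, 2 without a filter, 1 at a mean of at least 1 CPM, 4 with the block and 1 in DESeq2. Partners called lower numbered 2, and 5 without a filter, 1 at a mean of at least 1 CPM, 9 with the block, 1 with the neighbour offset, 0 without both first libraries, 4 in DESeq2 and 1 to 2 with 1 library left out. Without overexpressing replicate 3, 0 of the 3 lower members were still called. The log2 fold change of EFNB1 (-0.03) was 0.17 with the neighbour offset, 0.15 without both first libraries and -0.25 to 0.15 with 1 library left out. That of PLXNA3 was -0.12 with the offset, and that of NRP1 lay between -0.55 and 0.06 with 1 library left out. Over the named genes, 363 values kept their direction and side of the threshold, 45 lost the call, 31 gained it and 7 changed sign. Without both first libraries the adjusted p was 0.043 for EPHA5, 0.058 for EPHA4 and 0.086 for ROBO3. The cause of these changes was not tested.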
